A study of Mus musculus with 21 samples.

Results

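Expression of 10 genes of the oligodendrocyte lineage was followed in bulk RNA from mouse cortex and hippocampus. The first 5, Klk6, Il33, Sgk1, Cd9 and Cd63, are genes of the disease-associated oligodendrocyte (DOL) state. The other 5, Pdgfra, Cspg4, Sox10, Olig1 and Olig2, mark oligodendrocyte precursor cells (OPC) or the lineage as a whole. They were taken by symbol, by a rule with no threshold on a measured value but with earlier results of these data known, and are 10 of the 64361 genes in the count table. Each was found as 1 row: Klk6 (ENSMUSG00000050063), Il33 (ENSMUSG00000024810), Sgk1 (ENSMUSG00000019970), Cd9 (ENSMUSG00000030342), Cd63 (ENSMUSG00000025351), Pdgfra (ENSMUSG00000029231), Cspg4 (ENSMUSG00000032911), Sox10 (ENSMUSG00000033006), Olig1 (ENSMUSG00000046160) and Olig2 (ENSMUSG00000039830).

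The libraries came from GA-Camk2a mice and controls aged 30 to 40 weeks. GA-Camk2a mice carry a GFP-tagged poly-GA transgene, a dipeptide repeat protein of C9orf72 ALS, which a Camk2a-driven Cre switches on in excitatory neurons, so that oligodendrocytes are not the cells the driver targets. The labels call the other mice only ctrl. The study names the controls of its stained sections Camk2a, and whether the sequenced controls carry the Cre driver is not given in the sources used here. The cortex gave 5 control and 6 GA-Camk2a libraries and the hippocampus 4 control and 6 GA-Camk2a libraries, 21 in all from 11 mice. The study's legend gives the numbers of controls for the tissues the other way round, and the labels were followed. RNA was read with prime-seq, which counts the 3′ ends of polyadenylated transcripts. The question was whether genes of the disease state and genes of the precursor stage differ between the genotypes in the same libraries.

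Oligodendrocytes wrap axons in myelin and arise throughout life from precursor cells that divide in response to platelet-derived growth factor. In several models of neurodegeneration and demyelination, mature oligodendrocytes switch on a shared set of genes that includes complement, antigen presentation and secreted factors, and cells in this state are called DOL. Cd9 and Cd63 encode tetraspanins, small membrane proteins that organise other receptors. Cd9 is found in myelin and Cd63 in late endosomes and lysosomes, and activated microglia express both. Klk6 encodes a secreted serine protease that is abundant in mature oligodendrocytes. Il33 encodes a nuclear cytokine that oligodendrocytes and astrocytes release on injury, and Sgk1 a kinase that glucocorticoids and cell stress induce. Pdgfra encodes the receptor for platelet-derived growth factor A, Cspg4 the NG2 proteoglycan, and Sox10, Olig1 and Olig2 transcription factors of the lineage. Fibroblasts also express Pdgfra and pericytes Cspg4, and Sox10, Olig1 and Olig2 remain on in mature oligodendrocytes.

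The regulatory sequence upstream of these genes is shown first, because glucocorticoid and inflammatory factors are known to act on several of them. RefSeq promoter windows of the GRCm38.p6 build run from 250 bases before to 50 bases after a transcription start and were found for 8 of the 10 genes, 15 windows in all; Sox10 and Olig1 had no entry. Both strands were searched for TTCNNNGAA, bound by STAT factors, for AGAACA, the hexamer of the glucocorticoid receptor, for the E-boxes CAGCTG and CACGTG, and for TGACTCA, bound by AP-1. Capitals mark matches. The windows of the genes that changed most, Cd9 and Cd63, of Il33 (the upstream start) and Klk6 (the downstream start), of Sgk1 (the fifth of 6 starts, counted along the chromosome) and of Pdgfra for the precursor genes read as follows.
Cd9, chr6:125494711-125495010, minus strand: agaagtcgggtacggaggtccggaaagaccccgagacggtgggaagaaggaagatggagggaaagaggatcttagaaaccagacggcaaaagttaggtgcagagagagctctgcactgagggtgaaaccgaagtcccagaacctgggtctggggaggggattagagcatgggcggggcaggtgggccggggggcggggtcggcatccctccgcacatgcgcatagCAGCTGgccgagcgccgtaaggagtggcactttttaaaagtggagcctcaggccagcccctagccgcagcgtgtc
Cd63, chr10:128909095-128909394, plus strand: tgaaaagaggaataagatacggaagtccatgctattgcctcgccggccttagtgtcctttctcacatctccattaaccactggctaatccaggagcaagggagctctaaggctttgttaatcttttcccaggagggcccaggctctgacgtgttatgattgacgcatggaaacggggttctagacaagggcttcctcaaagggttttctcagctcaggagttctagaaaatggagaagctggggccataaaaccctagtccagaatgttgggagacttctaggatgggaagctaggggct
Il33, chr19:29924863-29925162, plus strand: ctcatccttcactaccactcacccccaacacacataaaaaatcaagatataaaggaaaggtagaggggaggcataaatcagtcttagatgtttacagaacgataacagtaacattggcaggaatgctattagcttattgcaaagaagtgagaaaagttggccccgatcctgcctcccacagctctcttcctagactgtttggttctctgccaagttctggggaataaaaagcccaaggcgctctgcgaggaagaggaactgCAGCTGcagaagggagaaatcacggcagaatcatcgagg
Klk6, chr7:43825200-43825499, plus strand: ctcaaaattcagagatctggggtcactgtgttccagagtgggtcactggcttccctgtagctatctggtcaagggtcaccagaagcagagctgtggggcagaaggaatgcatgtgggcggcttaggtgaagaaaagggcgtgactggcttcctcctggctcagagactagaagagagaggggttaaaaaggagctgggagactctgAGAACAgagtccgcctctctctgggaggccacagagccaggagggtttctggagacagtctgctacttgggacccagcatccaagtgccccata
Sgk1, chr10:21993640-21993939, plus strand: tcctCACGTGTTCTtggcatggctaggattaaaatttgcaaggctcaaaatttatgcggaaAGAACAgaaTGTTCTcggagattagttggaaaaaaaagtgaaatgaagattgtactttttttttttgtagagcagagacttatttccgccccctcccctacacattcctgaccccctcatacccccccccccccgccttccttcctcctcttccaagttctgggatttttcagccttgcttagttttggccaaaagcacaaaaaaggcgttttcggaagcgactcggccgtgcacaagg
Pdgfra, chr5:75152001-75152300, plus strand: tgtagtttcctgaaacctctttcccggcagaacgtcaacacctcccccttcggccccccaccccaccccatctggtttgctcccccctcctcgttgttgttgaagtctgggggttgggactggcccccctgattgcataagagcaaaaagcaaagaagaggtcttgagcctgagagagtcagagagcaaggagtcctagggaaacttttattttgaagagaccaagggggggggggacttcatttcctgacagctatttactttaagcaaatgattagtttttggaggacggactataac

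The Sgk1 window held AGAACA at 189 bases and its reverse complement at 180 bases before the start, the spacing of a palindromic glucocorticoid element, and a further hexamer at 242 bases that overlaps a CACGTG E-box. The Klk6 window held an AGAACA 44 bases before the start. Cd9 held a CAGCTG 25 bases before the start and Il33 one 11 bases after it. The windows of Cd63 and Pdgfra held none of these letters. Over all 15 windows, AGAACA was found in 4, CAGCTG in 3, TTCNNNGAA in 1, CACGTG in 1 and TGACTCA in 0. Sgk1 alone gave 6 of the windows, so this tally is not one of separate genes. AGAACA lay at its starts 1, 4 and 5, and the only TTCNNNGAA and CACGTG were also in Sgk1. For Klk6, Il33 and Sgk1 the window shown is one with matches. The other start of Klk6, that of Il33 and starts 2, 3 and 6 of Sgk1 held none. Among 32851 promoter windows of the same length, AGAACA was in 19%, CAGCTG in 16.3%, TTCNNNGAA in 8.3%, CACGTG in 7.15% and TGACTCA in 5.2%. These matches describe the sequence and say nothing about binding in these tissues.

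Total counts per library ranged from 1048201 to 5888102, and the levels below are CPM, a gene's counts scaled to a common library total. In controls, the hippocampal genes Prox1, C1ql2, Fibcd1, Spink8 and Zbtb20 were all higher in hippocampus. Of the 5 cortical genes Cux2, Tbr1, Rorb, Fezf2 and Lamp5, 3 were called lower there, Cux2, Tbr1 and Lamp5, and 1 was called higher. Several hippocampus libraries stood apart in the levels of single genes, and where that RNA came from was not tested. Ttr, a choroid plexus gene, ranged from 1786 to 55186 CPM there and was above 20000 CPM in 5 libraries, those of control mice 20 and 37 and GA-Camk2a mice 16, 30 and 35. Rorb, at 86.6 to 214 CPM in the other libraries, reached 1455, 4414 and 5303 CPM in the hippocampus of mice 11, 30 and 16 and 612 CPM in the cortex of mouse 41. Col1a2, a fibroblast gene, reached 223 CPM in the hippocampus of mouse 41 and 9.08 to 29.4 CPM in all others. Fits without the libraries high in Ttr or in Rorb were added after these values were seen. Without the 4 libraries above 500 CPM of Rorb, which left 3 control and 4 GA-Camk2a hippocampus libraries, Cd9 (1.27, adjusted p = 0.000224), Cd63 (0.93, adjusted p = 0.0121) and Il33 (0.85, adjusted p = 0.0106) kept their hippocampus calls between the genotypes and Klk6 did not (0.69, adjusted p = 0.0799). The GFP row held 17 counts in all, 4 of them in controls, and so could not check the genotype in 3′ libraries.

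In cortex 3 of the 5 disease-state genes rose in GA-Camk2a mice, Cd9, Cd63 and Il33, and in hippocampus 4 of 5, Cd9, Cd63, Klk6 and Il33. Of the precursor genes 0 of 5 passed the test in either tissue. A gene was called at an adjusted p of 0.05 in edgeR's quasi-likelihood test over all genes tested; of these, 6.35% were called higher and 6.16% lower in cortex, and 4.97% higher and 5.95% lower in hippocampus. The median log2 fold change of the disease-state genes was 0.45 in cortex and 0.77 in hippocampus, that of the precursor genes 0.00 and 0.12, and that of all genes tested -0.005 and 0.016. At an unadjusted p of 0.05, 2 of 5 precursor genes passed in cortex and 0 of 5 in hippocampus, and DESeq2 called 0 and 0. In bulk RNA, a change in the number of cells and a change in RNA per cell cannot be told apart.

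**Figure D1:**
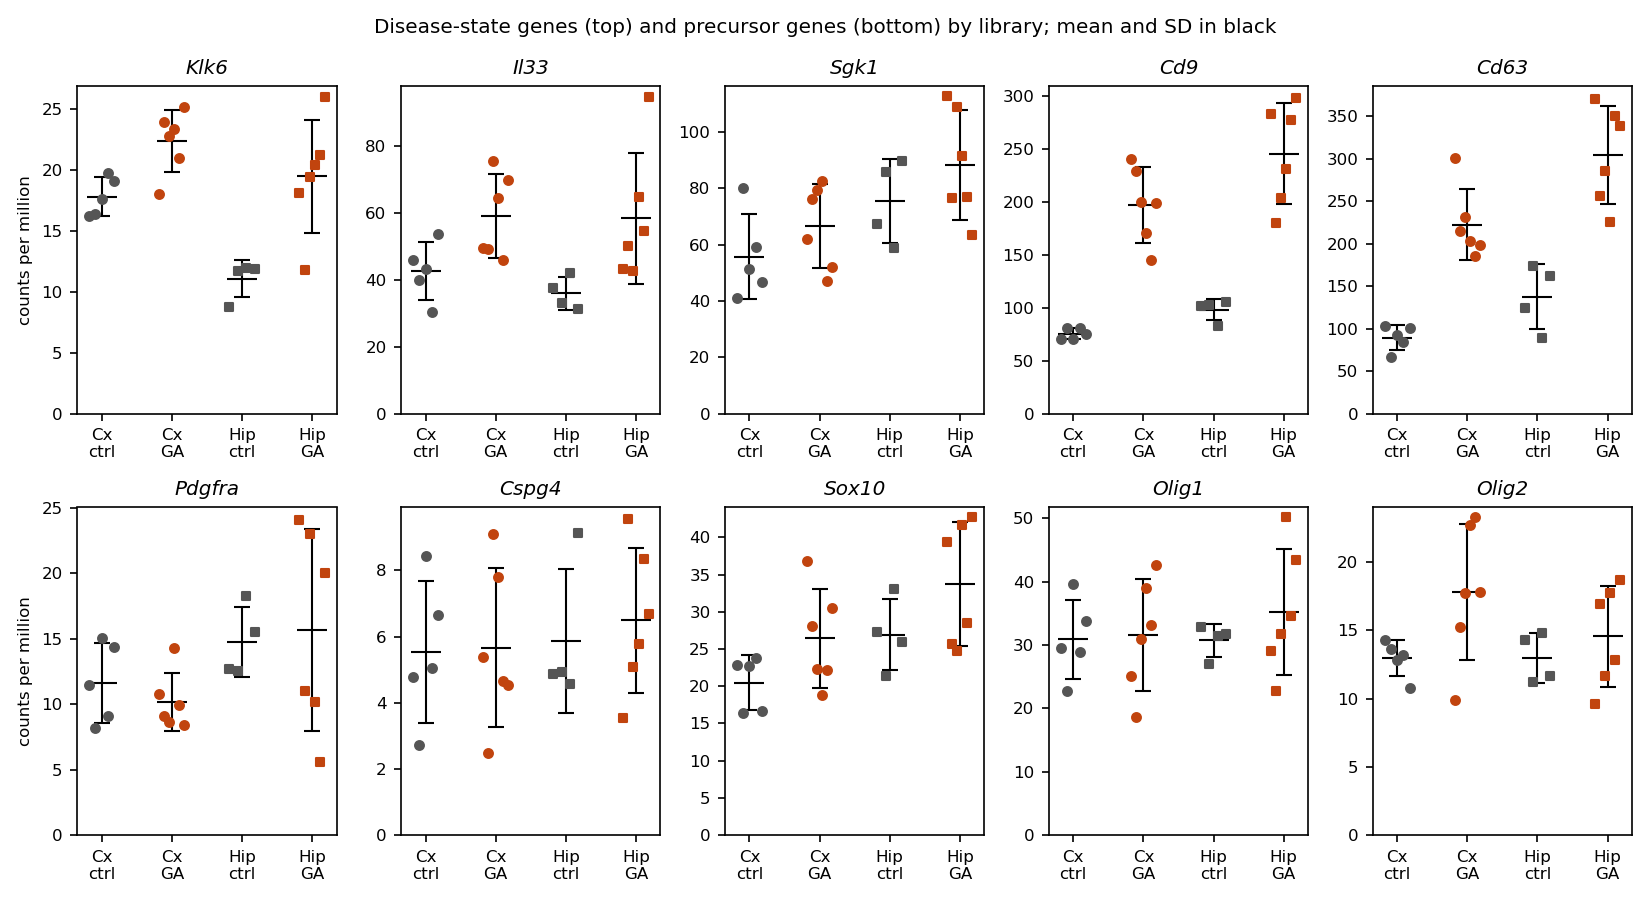
CPM (y axis, from 0) of the 5 disease-state genes (top row) and the 5 precursor genes (bottom row) in each library of cortex (Cx, circles) and hippocampus (Hip, squares), controls in grey and GA-Camk2a in red, with the mean and SD in black. For Cd9 and Cd63 every GA-Camk2a library lies above every control library of its tissue, while the genotypes overlap within each tissue for all 5 precursor genes.

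Cd9 had the largest log2 fold change of the 10 genes in both tissues. In cortex the control libraries held 70.0, 70.6, 75.4, 80.5 and 80.8 CPM, and the GA-Camk2a libraries from 145 to 241 with a median of 199. In hippocampus the controls held 83.2, 102, 102 and 106 CPM and the GA-Camk2a libraries from 180 to 298 with a median of 254. The controls lay within a narrow band and all GA-Camk2a libraries lay above it in both tissues. The log2 fold change was 1.40 ± 0.12 (SE) in cortex (adjusted p = 5.11e-08) and 1.27 ± 0.14 in hippocampus (adjusted p = 6.13e-05). Among all genes tested, the p of Cd9 ranked at position 22 of 13058 in cortex and 62 of 14884 in hippocampus. It was called in every alternative and with each library left out, with log2 fold changes from 1.24 to 1.52 in cortex and from 1.17 to 1.36 in hippocampus.

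Cd63 behaved alike in size. The cortex controls held 66.3, 84.5, 92.0, 101 and 103 CPM, and the GA-Camk2a libraries from 186 to 301 with a median of 209. The hippocampus controls were more spread, at 89.5, 125, 162 and 174 CPM, the highest values being those of the 2 controls with Ttr above 20000 CPM, and the GA-Camk2a libraries ranged from 226 to 370 with a median of 312. No control library reached a GA-Camk2a library in either tissue. The log2 fold change was 1.31 ± 0.13 in cortex (adjusted p = 3.14e-07) and 1.09 ± 0.19 in hippocampus (adjusted p = 0.00151). The hippocampus call of Cd63 was held in 14 of 15 alternatives and lost in batch 1 alone (0.999, adjusted p = 0.115). Of all genes tested, 3.5% in cortex and 5.6% in hippocampus had every GA-Camk2a library above every control library; among the members this held for Cd9 and Cd63 in cortex and for Il33, Cd9 and Cd63 in hippocampus. Without the 5 libraries high in Ttr, 2 controls and 3 GA-Camk2a libraries remained and Cd63 gave 1.26 (adjusted p = 0.00471) and Cd9 1.31 (adjusted p = 0.00396).

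Il33 rose by a smaller step. Cortex controls held 30.4, 40.0, 43.2, 45.8 and 53.7 CPM, and GA-Camk2a cortex from 46.0 to 75.5 (median 56.9), so that 3 of 6 GA-Camk2a libraries lay above all controls. Hippocampus controls held 31.2, 32.9, 37.7 and 42.2 CPM, and GA-Camk2a hippocampus from 42.7 to 94.7 with a median of 52.3. The groups touched but did not overlap in hippocampus. The log2 fold change was 0.45 ± 0.13 in cortex (adjusted p = 0.0225) and 0.65 ± 0.17 in hippocampus (adjusted p = 0.0235). The cortex call was held in 5 of 12 alternatives and 9 of 11 fits without a library, being lost without control 31 (0.38, adjusted p = 0.0941) and control 37 (0.41, adjusted p = 0.0651), while the direction was the same within both batches, 0.44 and 0.45 as differences of mean log2 CPM. The hippocampus call was lost without control 20 (adjusted p = 0.122), 31 (0.0638) or 37 (0.0700), and it was held in 12 of 15 alternatives, being lost in each batch alone and without the libraries high in Ttr (0.72, adjusted p = 0.138). The highest library, that of GA-Camk2a mouse 41, also had the highest summed level of mature oligodendrocyte genes, 5716 CPM against 2885 to 4239 in the other hippocampus libraries; without it the log2 fold change was 0.49 (adjusted p = 0.0371).

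Klk6 passed the test in hippocampus only, but the difference between the tissues did not pass one of its own. Cortex controls held 16.2, 16.3, 17.6, 19.1 and 19.7 CPM, and GA-Camk2a cortex from 17.98 to 25.2 (median 23.1). Hippocampus controls held 8.77, 11.7, 11.9 and 11.97 CPM, and GA-Camk2a hippocampus from 11.8 to 26.0 with a median of 19.9. In each tissue 5 of 6 GA-Camk2a libraries lay above all controls, the exceptions being mouse 16 in cortex and mouse 23 in hippocampus. The log2 fold change was 0.33 ± 0.14 in cortex (adjusted p = 0.140) and 0.77 ± 0.19 in hippocampus (adjusted p = 0.0152). The hippocampus call was lost without control 11 (0.67, adjusted p = 0.0611) or control 20 (0.80, adjusted p = 0.0511), in batch 1 alone (0.84, adjusted p = 0.166), in batch 2 alone (0.68, adjusted p = 0.217), without the libraries high in Ttr (0.88, adjusted p = 0.230) and with counts thinned to the smallest library (0.44, adjusted p = 0.410). Counting also the fit without libraries high in Rorb, where it was lost, the call was held in 10 of 15 alternatives. Klk6 rested on 16 to 72 counts per library, so that counting error is a large part of its spread.

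Sgk1 was the disease-state gene that did not pass in either tissue. Its cortex controls held 41.02, 46.8, 51.3, 59.2 and 79.9 CPM and GA-Camk2a cortex 47.2 to 82.5 with a median of 69.2. Its hippocampus controls held 58.7, 67.2, 85.9 and 89.8 CPM and GA-Camk2a hippocampus 63.4 to 113 with a median of 84.1. The groups overlapped over most of their range. The log2 fold change was 0.30 ± 0.16 in cortex (adjusted p = 0.251; 95% interval -0.04 to 0.64) and 0.16 ± 0.15 in hippocampus (adjusted p = 0.562; -0.16 to 0.47). The sign differed between batches: in cortex the fit of batch 1 alone gave 0.63 (adjusted p = 0.0224) and that of batch 2 alone -0.34 (adjusted p = 0.541). In hippocampus the 5 libraries with Ttr above 20000 CPM held 76.9 to 113 CPM of Sgk1 and the other 5 held 58.7 to 91.4 CPM; with Ttr as a term the log2 fold change was 0.15 (adjusted p = 0.404).

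**Figure D2:**
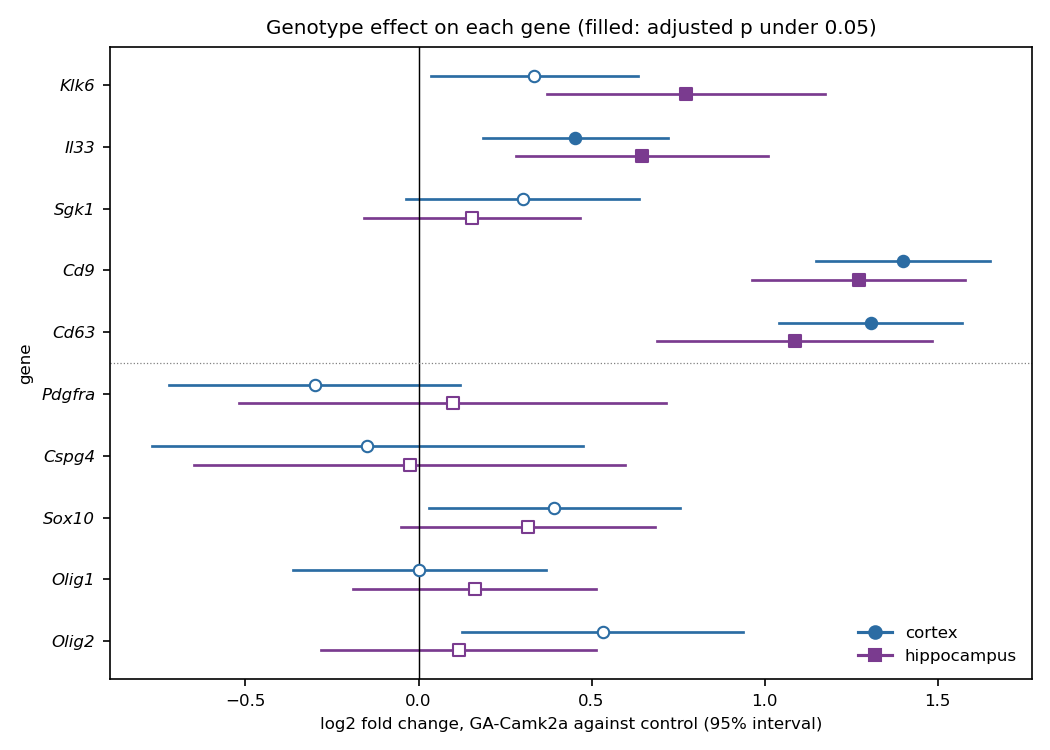
Log2 fold change of GA-Camk2a against control (x axis) with its 95% interval for each gene (y axis), cortex as circles and hippocampus as squares, filled where the adjusted p is under 0.05. Cd9 and Cd63 lie near 1.1 to 1.4 in both tissues, and the intervals of the precursor genes span 0 except those of Olig2 and Sox10 in cortex.

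Among the precursor genes, Pdgfra and Cspg4, the surface markers of OPC, showed no call and wide spread. Pdgfra held 8.17, 9.11, 11.4, 14.4 and 15.0 CPM in cortex controls and 8.40 to 14.3 with a median of 9.49 in GA-Camk2a cortex, where the log2 fold change was -0.30 ± 0.20 (adjusted p = 0.375). In hippocampus the controls held 12.6, 12.7, 15.5 and 18.2 CPM and the GA-Camk2a libraries spread from 5.57 to 24.1 with a median of 15.5, giving 0.10 ± 0.29 (adjusted p = 0.882). The 3 hippocampus GA-Camk2a libraries above 18.2 CPM were those of mice 16, 30 and 41, of which the first 2 were high in Rorb and the third in Col1a2, whereas control 11, also high in Rorb, held 12.7 CPM. Without the libraries high in Rorb the log2 fold change was -0.45 (adjusted p = 0.403). Its sign differed between batches in both tissues, -0.42 and 0.24 in cortex and 0.31 and -0.52 in hippocampus as differences of mean log2 CPM. Cspg4 held only 3 to 40 counts per library, 2.48 to 9.12 CPM in cortex and 3.54 to 9.55 CPM in hippocampus, with log2 fold changes of -0.15 ± 0.30 (adjusted p = 0.808) and -0.03 ± 0.29 (adjusted p = 0.976). The 95% intervals of Cspg4 ran from -0.77 to 0.48 in cortex and from -0.65 to 0.60 in hippocampus, and a change within them was not detectable at this depth.

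The transcription factors were measured more precisely. Olig1 held 22.7 to 39.6 CPM in cortex controls and 18.6 to 42.7 in GA-Camk2a cortex, and its log2 fold change was 0.00 ± 0.18 (adjusted p = 0.997; 95% interval -0.36 to 0.37). In hippocampus it held 27.0 to 32.8 CPM against 22.8 to 50.1, with 0.16 ± 0.16 (adjusted p = 0.598). Its GA-Camk2a libraries lay on both sides of the controls in both tissues. Sox10 held 16.3 to 23.8 CPM in cortex controls and 18.8 to 36.9 in GA-Camk2a cortex, with 0.39 ± 0.17 (adjusted p = 0.153), and 21.4 to 33.0 against 24.8 to 42.7 CPM in hippocampus, with 0.32 ± 0.17 (adjusted p = 0.274). In each tissue 3 of 6 GA-Camk2a libraries lay above all controls for Sox10. Sox10 was positive within both batches of both tissues, 0.26 and 0.52 in cortex and 0.34 and 0.17 in hippocampus.

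Olig2 came closest to a call. Cortex controls held 10.8, 12.8, 13.2, 13.6 and 14.3 CPM, and GA-Camk2a cortex from 9.89 to 23.3 with a median of 17.8. There 5 of 6 GA-Camk2a libraries lay above all controls and that of mouse 16 below all of them. The log2 fold change was 0.53 ± 0.20 (adjusted p = 0.0815), and without mouse 16 it was 0.66 (adjusted p = 0.0181). In hippocampus the controls held 11.2, 11.6, 14.3 and 14.8 CPM and the GA-Camk2a libraries 9.57 to 18.7 with a median of 14.9, with 0.12 ± 0.19 (adjusted p = 0.762). Mouse 16 was again the lowest library of its group. In cortex the 95% intervals of Olig2 (0.13 to 0.94) and Sox10 (0.03 to 0.75) did not span 0, although neither gene passed after adjustment over all genes.

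Set against each other within a library, the mean log2 CPM of the 5 disease-state genes minus that of the 5 precursor genes was 1.76 ± 0.26 (SD, n = 5) in cortex controls and 2.39 ± 0.26 (n = 6) in GA-Camk2a cortex. It was 1.70 ± 0.25 (n = 4) in hippocampus controls and 2.38 ± 0.21 (n = 6) in GA-Camk2a hippocampus. These differences of 0.62 and 0.68 are given as a description with no test. In cortex 5 of 6 and in hippocampus 6 of 6 GA-Camk2a libraries lay above all controls of the tissue. The disease-state mean moved by 0.74 and 0.77, and the precursor mean by 0.12 and 0.08. Cd9 and Cd63, which microglia also express, had the largest log2 fold changes of the 5 disease-state genes in both tissues, and in cortex Olig2 (0.53) lay above Il33 (0.45), Klk6 (0.33) and Sgk1 (0.30). Within batch the cortex difference was 0.81 in batch 1 and 0.32 in batch 2, and the hippocampus difference 0.72 and 0.64. The cortex control nearest the GA-Camk2a libraries, that of mouse 20, had the lowest precursor mean of all 21 libraries, 3.59, and the highest disease-state mean of the cortex controls, 5.73.

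**Figure D3:**
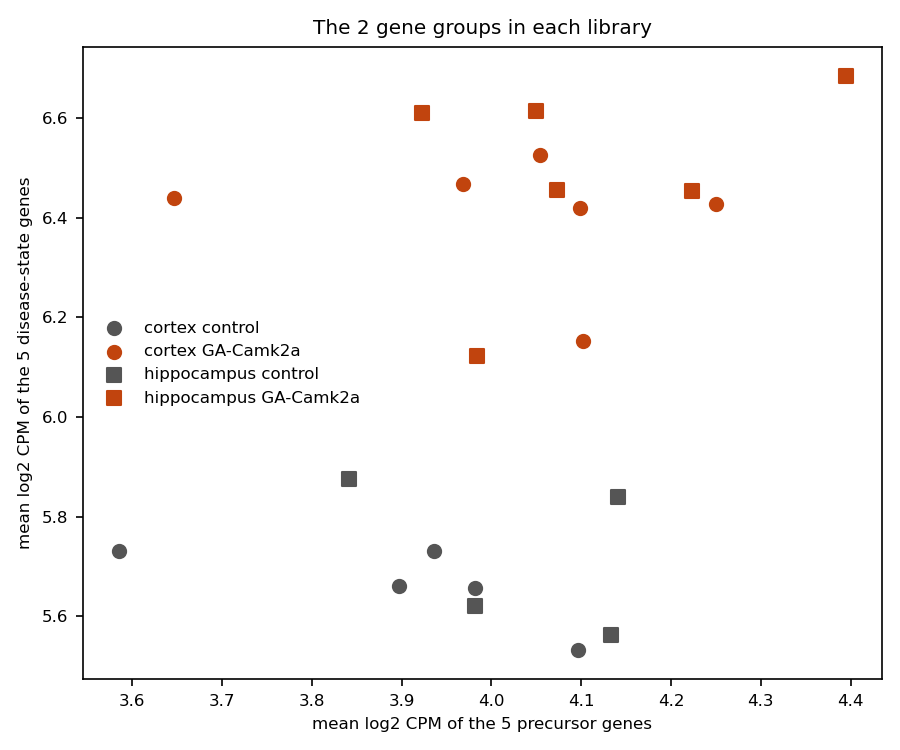
Mean log2 CPM of the 5 disease-state genes (y axis) against that of the 5 precursor genes (x axis), 1 point per library, controls in grey and GA-Camk2a in red, cortex as circles and hippocampus as squares. Every GA-Camk2a library has a disease-state mean of at least 6.12 and every control one of at most 5.88, whereas the precursor means of the genotypes overlap in both tissues, with 3 of 6 cortex and 2 of 6 hippocampus GA-Camk2a libraries above all controls of the tissue.

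Between the tissues of control mice, 3 of the 5 disease-state genes passed the test, Klk6, Cd63 and Cd9. Klk6 was lower in hippocampus, 11.1 ± 1.54 CPM (SD, n = 4) against 17.8 ± 1.59 (n = 5) in cortex, a log2 fold change of -0.76 ± 0.17 (SE, adjusted p = 0.00452). Cd63 was higher, 137 ± 38.2 against 89.3 ± 14.8 CPM (0.62 ± 0.16, adjusted p = 0.0143), and so was Cd9, 98.2 ± 10.1 against 75.5 ± 5.20 CPM (0.35 ± 0.11, adjusted p = 0.0408). Of all genes tested, 8.9% were called higher and 7.62% lower. Without the 2 control libraries high in Ttr, Klk6 kept its call (-0.91, adjusted p = 0.0156), and Cd63 fell to 0.23 (adjusted p = 0.353) and Cd9 to 0.24 (adjusted p = 0.333). The Cd63 call was also lost without hippocampus control 20 alone (0.40, adjusted p = 0.0677) or without cortex control 20 (0.55, adjusted p = 0.0514), and that of Cd9 held in 1 of 9 fits without a library. With the mouse as a block Cd9 gave 0.32 (adjusted p = 0.0554), while Klk6 and Cd63 kept their calls. Sgk1 gave 0.43 ± 0.16 (adjusted p = 0.0769), Il33 -0.30 ± 0.15 (adjusted p = 0.186), and 0 of 5 precursor genes passed (edgeR; 0 of 5 at an unadjusted p of 0.05; DESeq2 0).

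The order of group means followed from these differences. For Cd9 and Cd63 it was GA-Camk2a hippocampus (245 ± 47.8 and 304 ± 57.5 CPM, SD, n = 6), GA-Camk2a cortex (197 ± 35.7 and 222 ± 41.5), hippocampus controls and cortex controls. The GA-Camk2a groups overlapped each other and lay clear of both control groups, and the control groups overlapped for Cd63 but not for Cd9. For Klk6 it was GA-Camk2a cortex (22.4 ± 2.56), GA-Camk2a hippocampus (19.5 ± 4.65), cortex controls and hippocampus controls, where the GA-Camk2a groups overlap each other and the hippocampus GA-Camk2a libraries overlap the cortex controls. For Il33 the GA-Camk2a groups were level, 59.1 ± 12.5 CPM in cortex and 58.3 ± 19.6 in hippocampus, above cortex controls (42.6 ± 8.53) and hippocampus controls (36.0 ± 4.93), and each neighbouring pair in that order overlapped. For Sgk1 the order was GA-Camk2a hippocampus (88.3 ± 19.6), hippocampus controls (75.4 ± 14.9), GA-Camk2a cortex (66.6 ± 15.0) and cortex controls (55.7 ± 15.1), with overlap between all neighbours. For Pdgfra, Cspg4, Olig1 and Olig2 all 4 groups overlapped. For Sox10 the GA-Camk2a hippocampus libraries (24.8 to 42.7 CPM) lay above the cortex controls (16.3 to 23.8 CPM), and the other pairs of groups overlapped.

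The genotype effect itself was not shown to differ between cortex and hippocampus for any member. The interaction was tested over all 21 libraries, where 0.414% of the genes tested were called in either direction. Of the 10 members 0 were called by edgeR, 0 had an unadjusted p under 0.05 and 0 were called by DESeq2. Klk6 had the lowest adjusted p (edgeR). Its log2 fold change was higher in hippocampus by 0.42 ± 0.22 (95% interval -0.03 to 0.87, adjusted p = 0.539). For Cd9 the difference was -0.13 ± 0.19 (-0.53 to 0.27) and for Cd63 -0.23 ± 0.23 (-0.71 to 0.25). Among the precursor genes the differences farthest from 0 were those of Olig2, -0.42 ± 0.27 (-0.98 to 0.14), and Pdgfra, 0.39 ± 0.37 (-0.37 to 1.15).

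The other genes of the disease state moved in the direction of Cd9 and Cd63. Of 15 further DOL genes tested in cortex 11 rose and 0 fell, with a median log2 fold change of 0.97, and of 17 in hippocampus 9 rose and 2 fell, with a median of 0.79; these genes were listed with results of these samples known. The lowest adjusted p in cortex belonged to B2m, the light chain of MHC class I (1.93 ± 0.13, adjusted p = 1.79e-09), complement C4b (2.14 ± 0.18, adjusted p = 3.07e-08), H2-K1, an MHC class I heavy chain (2.04 ± 0.17, adjusted p = 4.06e-08), and Fxyd1, a regulator of the sodium pump (1.41 ± 0.13, adjusted p = 1.54e-07). In hippocampus they were H2-D1 (1.88 ± 0.15), B2m (1.38 ± 0.11), C4b (2.63 ± 0.22) and the protease inhibitor Serpina3n (2.00 ± 0.20). Among those that fell in hippocampus was Fxyd7 (-0.37, adjusted p = 0.0484), which neurons express. C4b, H2-D1 and H2-K1 have near-identical relatives, and their counts are uncertain to that extent.

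Few genes of mature oligodendrocytes and 0 of the remaining precursor programme were called. The 16 mature oligodendrocyte genes had a median log2 fold change of 0.17 in cortex and 0.22 in hippocampus. Over all genes tested the median was -0.005 and 0.016. At an unadjusted p of 0.05 (edgeR), 5 of 16 mature genes passed in cortex and 4 of 16 in hippocampus. Of 16 mature oligodendrocyte genes 2 rose in cortex, the myelin genes Cnp (0.35 ± 0.09, adjusted p = 0.0133) and Cldn11 (0.41 ± 0.11, adjusted p = 0.0172), and 2 in hippocampus, Cldn11 (0.46 ± 0.14, adjusted p = 0.0438) and Tspan2 (0.40 ± 0.12, adjusted p = 0.0495). Of 14 further OPC genes, among them Vcan, Ptprz1 and Gpr17, 0 were called in either tissue by edgeR (2 and 5 at an unadjusted p of 0.05; DESeq2 0 and 0), with medians of -0.01 and 0.02. Of the genes of newly formed oligodendrocytes 0 of 9 in cortex and 0 of 10 in hippocampus were called (1 and 2 at an unadjusted p of 0.05; DESeq2 0 and 0). The largest value there was Bmp4, 1.07 in cortex (adjusted p = 0.0649) and 0.90 in hippocampus (adjusted p = 0.0520).

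Other transcription factors accompany Olig1, Olig2 and Sox10 in the lineage. Of 10 tested, 1 rose in cortex, Myrf, the regulator of myelin genes (0.63 ± 0.16, adjusted p = 0.0115). In hippocampus 5 rose, among them Id4 (0.76 ± 0.11, adjusted p = 0.000505), Id2 (0.49 ± 0.08, adjusted p = 0.00150), Zfp536 (0.51 ± 0.13, adjusted p = 0.0168) and Nkx6-2 (0.82, adjusted p = 0.0327). Id2 and Id4 encode inhibitors of bHLH factors such as the Olig proteins, and astrocytes and neural precursors express them as well. The methods differed on whether their genotype effects differ between the tissues. In the interaction test 0 of 10 were called by edgeR (2 at an unadjusted p of 0.05) and 2 by DESeq2.

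Around Cd9 and Cd63, other tetraspanins split. Of 19 tested in cortex 7 rose and 2 fell, and of 20 in hippocampus 6 rose and 3 fell. Cd53, a tetraspanin of leukocytes and microglia, rose by 1.26 ± 0.22 in cortex (adjusted p = 0.000554) and 1.26 ± 0.17 in hippocampus (adjusted p = 0.000272). In cortex Cd37, also a leukocyte gene, rose by 1.40 ± 0.24 (adjusted p = 0.000384), Cd81 by 0.55 ± 0.09 (adjusted p = 0.000369) and Tspan4 by 1.00 ± 0.24 (adjusted p = 0.00801). In hippocampus Cd151 rose by 0.69 ± 0.14 (adjusted p = 0.00422), and Tspan17 (-0.85 ± 0.16, adjusted p = 0.00305) and Tspan13 (-0.51 ± 0.11, adjusted p = 0.00676) fell.

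Around Klk6, Il33, Sgk1 and Pdgfra, partner genes were mostly too low to test or not called. Of 15 other kallikreins and protease-activated receptors 0 passed the filter in cortex and 2 in hippocampus, where Klk8, a neuronal kallikrein, fell by 1.28 on the log2 scale (adjusted p = 0.00166) and the receptor gene F2r gave 0.18 (adjusted p = 0.807). Of 14 genes of IL-33 signalling 7 were tested in cortex, where the adaptor Myd88 rose (1.23 ± 0.29, adjusted p = 0.00672), and 8 in hippocampus, where 0 were called by edgeR (2 at an unadjusted p of 0.05; DESeq2 0). The IL-33 receptor gene Il1rl1 did not pass the filter in either tissue. Of the PDGF ligands and the second receptor gene Pdgfrb, 0 of 3 in cortex and 0 of 5 in hippocampus were called (0 and 3 at an unadjusted p of 0.05; DESeq2 0 and 0). Pdgfa, which encodes the ligand of the Pdgfra receptor, gave 0.14 (adjusted p = 0.448) and 0.08 (adjusted p = 0.746).

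Of the genes that glucocorticoids induce, 5 of 15 rose and 1 fell in cortex and 6 of 16 rose and 1 fell in hippocampus. The metallothioneins Mt2 (1.35 ± 0.14 in cortex, 1.03 ± 0.13 in hippocampus) and Mt1 (1.07 ± 0.13 and 0.78 ± 0.11) rose, as did Nfkbia (0.71 ± 0.14 and 0.73 ± 0.14), while Klf9 fell (-0.50, adjusted p = 0.00381, and -0.31, adjusted p = 0.0188). Fkbp5 and Tsc22d3, widely used markers of glucocorticoid receptor activity, gave -0.01 (adjusted p = 0.986) and 0.04 (adjusted p = 0.869) in cortex and -0.01 (adjusted p = 0.983) and 0.08 (adjusted p = 0.788) in hippocampus. Of 10 further kinases and substrates of the SGK pathway, Nedd4l, a ubiquitin ligase that SGK1 phosphorylates, fell in both tissues (-0.47, adjusted p = 0.00688, and -0.47, adjusted p = 0.00710), as did Pdpk1, the kinase that activates SGK1 (-0.55, adjusted p = 0.00589, and -0.41, adjusted p = 0.0337). In cortex Foxo3 fell as well (-0.62, adjusted p = 0.00494) and Ndrg2 rose (0.41, adjusted p = 0.00421), and in hippocampus Nr3c2 fell (-0.49, adjusted p = 0.0311).

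Markers of other cell types moved with the genotype in the same libraries as Cd9 and Cd63. Of 15 microglial genes 12 rose in cortex and 10 in hippocampus, and 0 fell. Their summed level was 612 to 692 CPM in cortex controls and 1606 to 2595 in GA-Camk2a cortex, and 546 to 679 and 1148 to 1888 CPM in hippocampus. C1qa rose by 1.99 ± 0.13 in cortex and by 1.501 ± 0.13 in hippocampus, Trem2 by 2.31 and 1.93, whereas P2ry12 gave 0.07 (adjusted p = 0.801) and -0.16 (adjusted p = 0.570). Of 12 astrocyte genes 8 rose in each tissue, with summed levels of 2736 to 3623 against 3962 to 5516 CPM in cortex and 3240 to 3736 against 4848 to 6551 CPM in hippocampus. None of the marker genes of these lists was at 0 in any group. The part of microglia and astrocytes in the values of Cd9, Cd63 and Il33 was not tested.

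The mature oligodendrocyte genes summed to 2961 to 3433 CPM in cortex controls, 3110 to 4181 in GA-Camk2a cortex, 2981 to 3733 in hippocampus controls and 2885 to 5716 in GA-Camk2a hippocampus, and so overlapped between the genotypes. The further OPC genes summed to 396 to 540 and 382 to 474 CPM in cortex and to 521 to 564 and 518 to 688 CPM in hippocampus. Of 10 excitatory neuron genes 6 fell in cortex and 7 in hippocampus, among them Camk2a, by 0.74 and 1.15 on the log2 scale. Endothelial and mural genes rose in 1 of 10 and 2 of 12, and perivascular fibroblast genes in 1 of 5 (Dcn, 0.61 ± 0.13, adjusted p = 0.00335) and 0 of 7 (edgeR; 5 of 7 at an unadjusted p of 0.05 in hippocampus; DESeq2 0). The fibroblast genes summed to 69.9 to 96.4 CPM in cortex controls and 88.1 to 142 in GA-Camk2a cortex, which overlap, and to 97.1 to 149 CPM in hippocampus controls and 184 to 640 in GA-Camk2a hippocampus, which do not. The highest hippocampus library was that of mouse 41, and the other GA-Camk2a libraries held 184 to 253 CPM. The part of fibroblasts in the values of Pdgfra was not tested. Choroid plexus genes, a list added after the Ttr values were seen, were called in 0 of 4 and 0 of 8 between the genotypes (edgeR; 0 and 0 at an unadjusted p of 0.05; DESeq2 0 and 0) and in 7 of 7 between the tissues of controls, all higher in hippocampus.

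**Figure D4:**
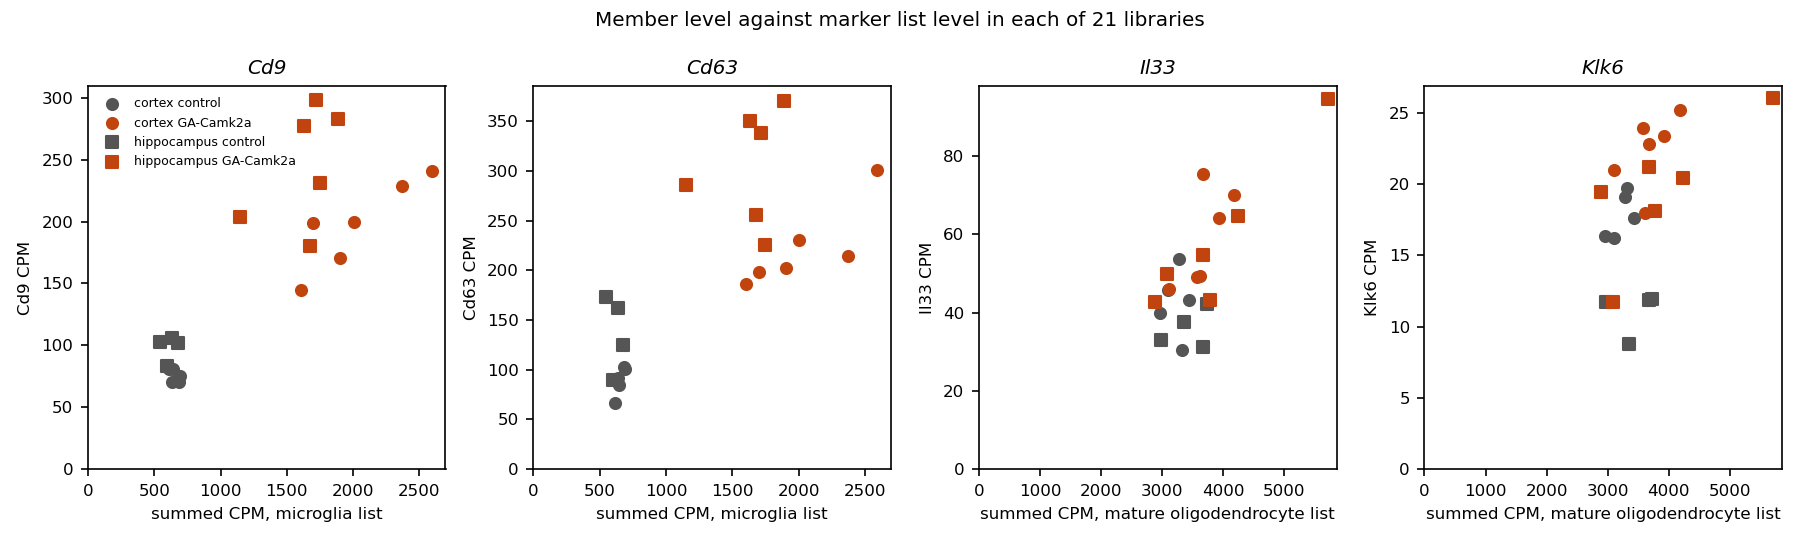
CPM of Cd9 and Cd63 (y axes) against the summed CPM of 15 microglial genes, and of Il33 and Klk6 against that of 16 mature oligodendrocyte genes (x axes), 1 point per library, controls in grey and GA-Camk2a in red, cortex as circles and hippocampus as squares. The genotypes separate on both axes for the microglial list (at most 692 CPM in controls, at least 1148 in GA-Camk2a) and overlap along the mature oligodendrocyte list, where the hippocampus of GA-Camk2a mouse 41 stands alone at 5716 CPM.

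For the members called in both tissues, the genes with the most similar profile were sought among 11471 genes over the 21 libraries, by the root mean square difference of log2 CPM after centring each gene. Libraries of one group share genotype and tissue, so these are descriptions. Cd9 was nearest to Pdlim4 (0.24), Csf1 (0.25) and Clu (0.25), against an SD of 0.70 for Cd9 itself. Cd63 was nearest to a gene with no symbol, ENSMUSG00000121727 (0.24), to Ctsc (0.26) and to Csf1 (0.26), against an SD of 0.71. Il33 was nearest to Mid1ip1 (0.23), the myelin gene Cnp (0.23) and Adhfe1 (0.24), against an SD of 0.39.

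**Figure D5:**
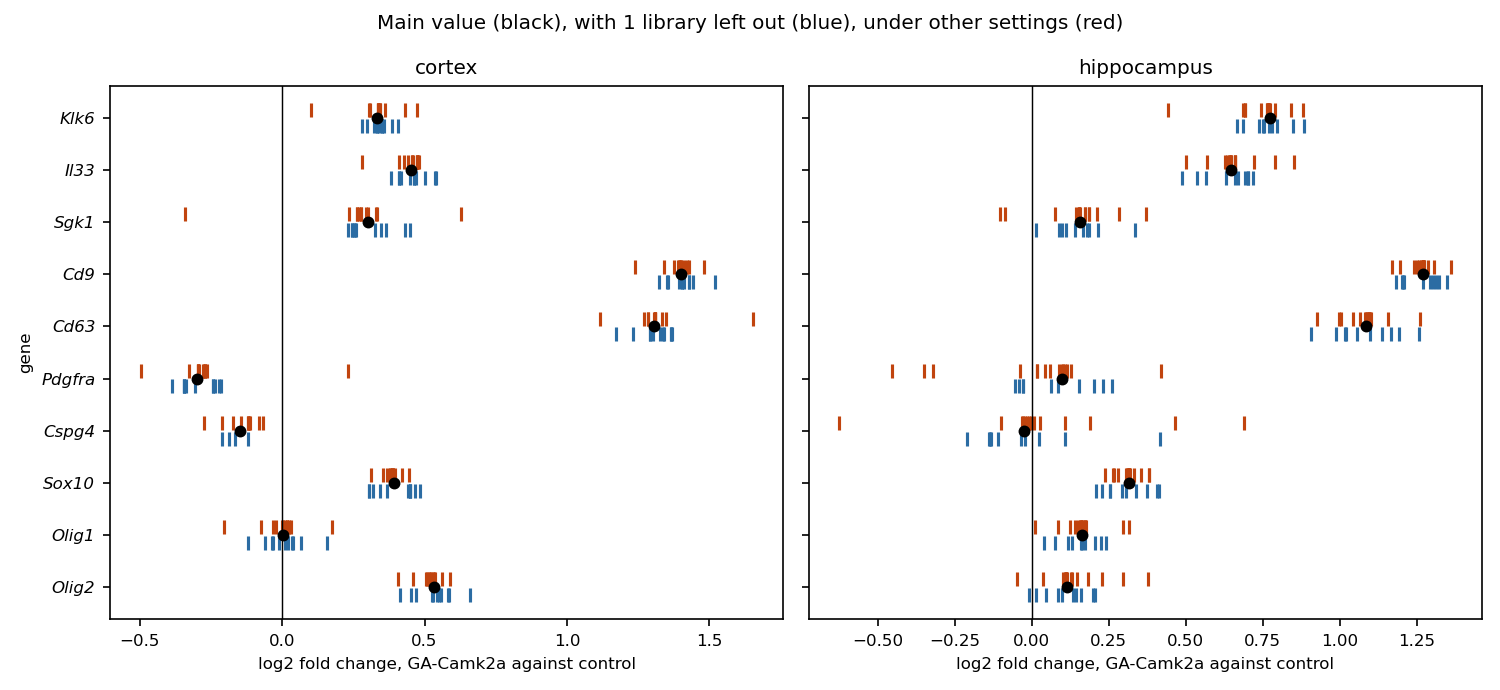
Log2 fold change of GA-Camk2a against control (x axis) for each gene (y axis) in cortex and hippocampus: the main value as a black point, values with 1 library left out as blue ticks and values under other settings as red ticks. Cd9 and Cd63 remain at or above 0.908 throughout, Klk6 and Il33 remain above 0, and Sgk1, Pdgfra, Cspg4, Olig1 and Olig2 have ticks on both sides of 0 in at least 1 tissue.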

How the data were processed

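Bulk prime-seq libraries of 21 tissue samples were analysed from the deposited counts, which the authors made with zUMIs and STAR on the GRCm39 build (mm39) with a GFP sequence added. Whether these counts are molecules or reads, and how strand, introns and overlapping genes were treated, is not given in the sources used here. Gene symbols came from a GENCODE annotation of GRCm38, matched on Ensembl number for 43308 of 64362 rows, which hold 96.1% of the counts; 0 count columns were unused. The authors' own comparison used DESeq2 1.44.

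Comparisons were fitted with edgeR 4.0.16 in R 4.3.3 (TMM factors, filterByExpr with a minimum count of 10, batch as a term, quasi-likelihood F-test, Benjamini-Hochberg adjustment over all genes tested, threshold 0.05). SE and 95% intervals were derived from the F statistic. DESeq2 1.42.0 and limma 3.58.1 served as alternatives. Log2 CPM used a prior count of 2. All 10 members were named, and from each context list the genes past the threshold with the 4 lowest adjusted p-values per tissue, with a list of 5 genes or fewer in full; genes beyond this (Fkbp5, Tsc22d3, P2ry12, Trem2, Bmp4, Klf9, Pdgfa, Il1rl1, F2r, Fxyd7, Rorb, Ttr, Col1a2) were named after their values were seen. Some genes counted in the lists are not reported here by name. The members and lists were chosen with earlier results of these data known.

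Numbers in the labels pair the tissues of 10 mice, and Xist and Y-linked counts matched within all 10; across genes, the same-mouse correlation of deviations from group means had a median of 0.04 (-0.23 to 0.28, 5 of 10 above 0.1). Mouse as a block was an alternative. No 2 libraries were identical. Between genotypes within a tissue the replicates are mice, so those p-values measure the spread between animals. The main fits between tissues and of the difference of genotype effects hold both tissues of most mice without a mouse term. Their p-values treat such libraries as independent. Counting precision follows the totals, from 1048201 to 5888102 counts; intervals cover counting error and animal spread together. The edgeR step was tested on simulated data.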

Additional observations from a re-analysis of the deposited data

Results flagged for a closer look

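Each of the 40 sets of CPM values, 10 genes in 4 groups, was examined for a single library far from the others, and 2 were found, where chance gives about 1 in 20. Klk6 in the hippocampus of control mouse 11 was 8.77 CPM, below the next lowest control at 11.7 CPM. Cspg4 in the hippocampus of control mouse 37 was 9.12 CPM, above the next highest control at 4.93 CPM.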

How the results depend on the processing

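Over the 40 pairings of a gene and a comparison, 1008 alternative values were computed: 956 kept their side of the threshold, 46 lost a call, 6 gained one and 0 calls changed direction. Of the 956, 71 differed in sign from the reported value, with neither called. Cd9 and Cd63 in cortex and Cd9 in hippocampus were called under every alternative run.

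In hippocampus the count of members past the threshold, 4, was 1 in batch 1 alone (Cd9), 2 in batch 2 alone (Cd9 and Cd63), 2 without the libraries high in Ttr, and 2 to 4 with 1 library left out (2 without control 20); in cortex it was 3 and ranged from 2 to 4. Between tissues in controls the count of 3 was 1 after thinning (Cd63), 1 in batch 1 alone (Sgk1), 0 in batch 2 alone, 1 without the libraries high in Ttr (Klk6), and 1 to 4 with 1 library left out (1 without hippocampus control 20). The cause was not tested; batch 1 and batch 2 alone hold fewer libraries. The contrast of the gene groups in cortex, 0.62, was 0.32 in batch 2 alone and 0.54 to 0.72 with 1 library left out; in hippocampus it was 0.59 to 0.79.

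With the replicate block for mouse, 2 members were called between tissues (Klk6 and Cd63) and 0 in the test of the difference of genotype effects; the block changed no other call. The fits with sex as a term, with Ttr as a term and without libraries high in Ttr or Rorb were chosen after seeing the data. Depth limits Cspg4, at 3 to 40 counts per library, and Klk6, at 16 to 72.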

Other observations

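Vessel-associated genes were described only by counts. Vtn, expressed by pericytes, rose by 0.80 ± 0.13 (SE) in cortex (adjusted p = 0.000171) and 0.46 ± 0.14 in hippocampus (adjusted p = 0.0471, edgeR), and Vwf, an endothelial gene, by 1.09 ± 0.29 in hippocampus (adjusted p = 0.0232) with -0.18 in cortex (adjusted p = 0.746). Pdgfrb, the mural relative of Pdgfra, gave 0.35 in cortex (adjusted p = 0.443) and 0.54 in hippocampus (adjusted p = 0.104).

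GA-Camk2a mouse 16 had the lowest Olig2 level of its group in both tissues, 9.89 CPM in cortex and 9.57 CPM in hippocampus, beside the highest Cd63 level in both, 301 and 370 CPM. This mouse was picked out after the values were seen.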
